A study of Mus musculus with 18 samples.

Results

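A set of 10 genes subject to genomic imprinting was followed through postnatal kidney development: Igf2, H19, Mest, Cdkn1c, Ndn, Dlk1, Peg3, Plagl1, Grb10 and Igf2r. They were taken by name, with every probe annotated to them, and make up 10 of the 17711 genes named on the array. Of the 10, 9 had a probe (18 probes in all), and 8 had a probe above the level filter and were tested. No probe was annotated to H19. The 3 Plagl1 probes stayed below the filter on each of the 18 arrays. The kidneys came from male CD1 mice, an outbred stock, taken on the day of birth (P0), every other day from P2 to P10, and then at P20, P30 and P90. They were dissected into medulla, the inner zone with papilla, loops of Henle and collecting ducts, and cortex, the outer zone with glomeruli and convoluted tubules. RNA of 4 animals was pooled for every array, and there was 1 Illumina bead array per age and region, 9 for medulla and 9 for cortex. No genetic change or treatment was applied.

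In imprinted genes 1 parental copy is silenced, and many of these genes act on growth before and just after birth. Igf2 (expressed from the paternal copy) encodes a fetal growth factor that signals through the IGF1 and insulin receptors, whereas the maternally expressed Igf2r encodes the receptor that carries IGF2 to lysosomes for degradation. Cdkn1c and Grb10, both maternally expressed in most tissues, restrain growth, the first as an inhibitor of cyclin-dependent kinases and the second as an adaptor that damps insulin and IGF receptor signalling. The arrays do not tell the parental copies apart, so the values are total RNA levels.

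Imprinted genes often carry promoters rich in CG dinucleotides, the sites at which DNA is methylated. RefSeq promoter windows of build GRCm38.p6, 250 bases before to 50 after a transcription start, were found for 8 of the 10 genes (14 windows). The window with the most CG is shown for 4 genes whose RNA fell with age and for Igf2r, whose RNA did not pass that test, with each CG in capitals. The Igf2 window lies at chr7:142658755-142659054 on the minus strand, Mest at chr6:30737800-30738099 on the plus strand, Ndn at chr7:62348027-62348326 on the plus strand, Grb10 at chr11:12037371-12037670 on the minus strand and Igf2r at chr17:12769657-12769956 on the minus strand.
Igf2: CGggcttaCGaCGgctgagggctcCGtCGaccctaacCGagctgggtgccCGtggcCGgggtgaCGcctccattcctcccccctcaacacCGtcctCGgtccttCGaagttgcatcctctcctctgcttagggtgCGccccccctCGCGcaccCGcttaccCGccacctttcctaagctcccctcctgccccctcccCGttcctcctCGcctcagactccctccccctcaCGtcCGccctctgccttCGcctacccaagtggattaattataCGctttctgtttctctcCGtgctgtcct
Mest: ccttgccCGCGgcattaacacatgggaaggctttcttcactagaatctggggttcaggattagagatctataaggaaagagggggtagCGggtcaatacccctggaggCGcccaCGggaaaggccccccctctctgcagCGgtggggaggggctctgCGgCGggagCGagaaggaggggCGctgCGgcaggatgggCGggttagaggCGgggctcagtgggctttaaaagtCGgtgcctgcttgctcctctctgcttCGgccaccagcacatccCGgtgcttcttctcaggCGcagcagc
Ndn: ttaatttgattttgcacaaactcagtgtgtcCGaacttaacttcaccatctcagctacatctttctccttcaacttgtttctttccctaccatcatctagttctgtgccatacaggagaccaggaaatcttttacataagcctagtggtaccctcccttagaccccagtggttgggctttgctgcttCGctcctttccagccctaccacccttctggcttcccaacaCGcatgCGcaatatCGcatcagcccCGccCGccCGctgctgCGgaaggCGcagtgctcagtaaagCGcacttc
Grb10: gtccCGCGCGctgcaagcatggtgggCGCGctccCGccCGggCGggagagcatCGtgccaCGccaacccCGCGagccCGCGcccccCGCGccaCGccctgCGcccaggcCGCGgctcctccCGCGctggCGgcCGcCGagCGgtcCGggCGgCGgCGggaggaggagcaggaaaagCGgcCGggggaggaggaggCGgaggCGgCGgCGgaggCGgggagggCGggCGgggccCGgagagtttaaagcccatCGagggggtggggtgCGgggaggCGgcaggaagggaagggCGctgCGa
Igf2r: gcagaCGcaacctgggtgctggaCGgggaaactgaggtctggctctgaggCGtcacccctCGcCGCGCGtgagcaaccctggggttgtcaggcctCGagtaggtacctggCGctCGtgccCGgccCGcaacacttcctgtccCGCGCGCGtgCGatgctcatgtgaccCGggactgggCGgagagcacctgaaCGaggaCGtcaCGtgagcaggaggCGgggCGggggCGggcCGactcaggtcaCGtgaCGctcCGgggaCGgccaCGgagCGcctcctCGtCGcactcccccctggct
These windows held 24 CG in Igf2, 17 in Mest, 11 in Ndn, 45 in Grb10 and 34 in Igf2r. The median over the 32851 windows of the table was 7 (quartiles 3 and 20). That median is over single windows, whereas those shown were picked as the richest of each gene. Other windows of these genes held 14, 7 and 2 CG in Igf2, 17 and 8 in Mest and 9 in Grb10. Fewer CG than in the Grb10 window shown were found in 98.1% of windows, and fewer than in the Ndn window in 58.6%. The motif TATAAA, searched on both strands, was in 0 of the 14 windows and in 13.6% of windows in the table. These counts describe the letters of the windows and say nothing of their methylation, which was not measured.

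The values below are log2 intensities as the authors normalized them, and a difference of 1 is a factor of 2 in intensity. The level filter, the 75th percentile of an array, lay between 8.28 and 8.37. Values near it are close to background, where differences are compressed. Tests were made with limma, with p-values adjusted by Benjamini-Hochberg over the 8901 genes tested. Ages served as replicates, so p-values measure the spread across ages around the fit, not the spread between animals or repeated arrays. In whole tissue, fewer cells of a type and less RNA per cell cannot be told apart. The regions could be told by known genes. The inner medullary urea transporter gene Slc14a2 read 10.29 to 12.27 on medulla arrays, against 8.10 to 8.64 on cortex arrays. By limma 5 of 5 podocyte genes were lower in medulla, against 11.7% of all genes. Without P4, P6 and P10 this was 0 of 5, with 72 of all 8901 genes called lower. Podocyte genes were nevertheless above the filter in medulla, 5 of 5, as were proximal tubule genes, 6 of 6. Adrenal genes were at background (0 of 10 passed the filter). The brown fat gene Ucp1 stood out on some arrays, with 11.89 at P4 and 10.87 at P10 in medulla, and 10.12 at P4, 10.67 at P6 and 11.57 at P10 in cortex.

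**Figure D1:**
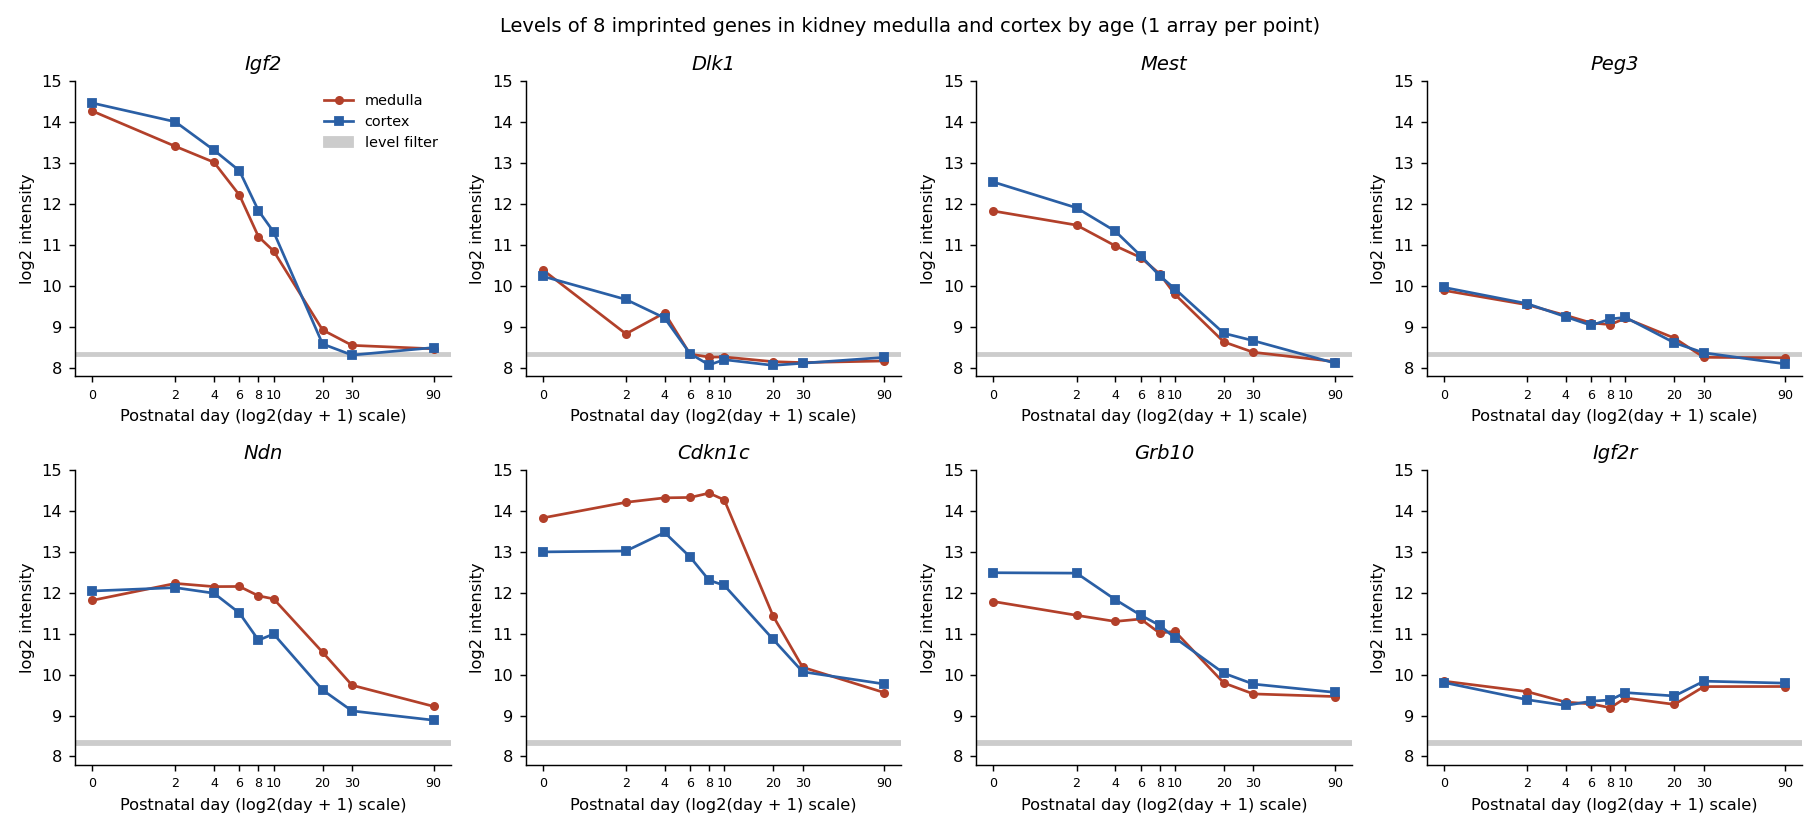
Log2 intensity (y) against postnatal day on a log2(day + 1) scale (x) for the 8 tested genes, with medulla as red circles, cortex as blue squares and the level filter as a grey band; each point is 1 array. Igf2 and Mest declined from birth in both regions, Cdkn1c and Ndn stayed high in medulla until P10, and Igf2r stayed between 9.19 and 9.84 on every array.

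The first question was whether RNA of these genes declined over postnatal life. In each region 7 of the 8 tested genes fell along a line on log2(day + 1), and Igf2r did not pass the test. Across all tested genes, 22.5% were lower and 16.9% higher with age in medulla, and 29.9% were lower and 25.6% higher in cortex. The median fitted change from P0 to P90 of the 8 genes was -3.02 in medulla and -3.81 in cortex, beside -0.02 over all genes in each region. Dlk1 was above the filter only on the arrays from P0 to P6, so for it a decline was a condition of being tested.

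Igf2, the growth factor at the centre of the network, was far above the filter at birth and near background by P30. In medulla it read 14.27, 13.41, 13.02, 12.21, 11.20, 10.85, 8.92, 8.55 and 8.46 from P0 to P90, and in cortex 14.46, 14.01, 13.31, 12.81, 11.84, 11.32, 8.58, 8.31 and 8.49. Levels went down at each step in medulla and at 7 of 8 steps in cortex, and the last 3 ages lay near background in both regions. The fitted change was -7.09 in medulla (SE 0.95, n = 9 ages, limma adjusted p = 0.000231) and -7.72 in cortex (SE 0.95, adjusted p = 2.37e-05). The measured change at P90 relative to P0 was smaller in size than that of the line, -5.81 in medulla and -5.97 in cortex. By P10 the decline had covered 58.9% of its log2 span in medulla and 52.7% in cortex, and by P20 92.1% and 98.5%, in that order.

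Dlk1, a transmembrane protein related to Notch ligands and made by many fetal tissues, was the earliest to reach background. It read 10.39, 8.83, 9.34 and 8.33 at P0, P2, P4 and P6 in medulla, and 10.23, 9.67, 9.22 and 8.35 in cortex. From P8 on it was at or below the filter on every array, between 8.06 and 8.26. The largest single step came between P0 and P2 in medulla (-1.56) and between P4 and P6 in cortex (-0.87). A second Dlk1 probe gave fitted changes of -0.87 in medulla and -0.78 in cortex. The first gave -2.12 and -2.26 in the same order, and both probes passed the test. The second probe was above the filter on 4 medulla and 3 cortex arrays, none after P8. A decline was thus a condition of testing it too. In medulla the call rested on P0: without that age the fitted change was -1.19 (limma adjusted p = 0.110). On untransformed days Dlk1 was not called in either region (-1.06 in medulla, adjusted p = 0.308, and -1.07 in cortex, adjusted p = 0.287).

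Mest encodes an enzyme-like protein of the mesoderm and is paternally expressed. It also declined from birth in both regions, by less than Igf2 on the log2 scale. Its levels were 11.83, 11.48, 10.98, 10.69, 10.29, 9.79, 8.63, 8.38 and 8.15 in medulla and 12.53, 11.90, 11.34, 10.74, 10.25, 9.93, 8.84, 8.66 and 8.11 in cortex. They went down at all 8 steps in both regions, and at P90 both were below the filter. The fitted change was -4.46 in medulla (SE 0.44, limma adjusted p = 3.77e-05) and -5.06 in cortex (SE 0.44, adjusted p = 5.4e-06). Across the 18 arrays, which share ages, r between Mest and Igf2 was 0.986.

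Peg3, a zinc finger protein of the paternally expressed set, was within 2 log2 units of the filter on all arrays and fell in both regions. It read 9.89 at P0, 9.21 at P10 and 8.25 at P90 in medulla, and 9.96 at P0, 9.23 at P10 and 8.09 at P90 in cortex. The 2 regions differed by at most 0.15 at any age. Fitted changes were -1.80 in medulla and -1.95 in cortex (SE 0.17 each, limma adjusted p = 3.77e-05 and 5.56e-06 in that order). A second Peg3 probe, over the filter at P0 and P2 in medulla and P0 in cortex, so that a decline was again a condition of testing, gave -0.45 in medulla (adjusted p = 0.0211) and -0.34 in cortex (adjusted p = 0.0573). Plagl1, a zinc finger transcription factor that induces several imprinted genes, read between 7.84 and 8.29 on its 3 probes over all arrays, so no change could be measured.

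Ndn, which encodes necdin, a growth suppressor best known from neurons, held its level in medulla through P10. Its medulla values were 11.81, 12.23, 12.15, 12.15, 11.92 and 11.85 from P0 to P10, then 10.55, 9.74 and 9.22 at P20, P30 and P90. In cortex they were 12.04, 12.12, 11.98, 11.50, 10.84 and 10.99 from P0 to P10, then 9.62, 9.11 and 8.89. The 2 regions were within 0.23 of each other up to P4, and medulla was higher at every age from P2 on. The fitted change was -3.24 in medulla (SE 0.68, limma adjusted p = 0.00219) and -4.02 in cortex (SE 0.68, adjusted p = 0.000182). Over P0 to P10 alone, the medulla line had a slope near 0 (0.09 when extended to P90, adjusted p = 0.967). Without P90 the medulla trend was not called (-2.64, adjusted p = 0.0596).

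Cdkn1c, the inhibitor of cyclin-dependent kinases, stayed near its birth level in medulla until P10. Medulla arrays read 13.82, 14.20, 14.31, 14.32, 14.43 and 14.26 from P0 to P10, and 11.42, 10.18 and 9.56 at P20, P30 and P90. Cortex arrays read 12.99, 13.02, 13.47, 12.87, 12.30 and 12.18 from P0 to P10, and 10.86, 10.07 and 9.77 after that. The highest medulla value was at P8 and the highest cortex value at P4, and medulla exceeded cortex at each age up to P30. The fitted change was -5.37 in medulla (SE 1.13, limma adjusted p = 0.00238) and -4.12 in cortex (SE 1.13, adjusted p = 0.00593). The change between P10 and P20 was -2.84 in medulla, 66.6% of the whole change, and -1.32 in cortex, 40.9% of it. The medulla call was lost without P90 (-4.41, adjusted p = 0.0614), and over P0 to P10 alone the medulla line rose (0.97 when extended to P90) without passing the test (adjusted p = 0.457).

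Grb10, the signalling adaptor, read 11.78, 11.45, 11.30, 11.35, 11.01, 11.06, 9.80, 9.53 and 9.46 in medulla and 12.49, 12.48, 11.83, 11.45, 11.20, 10.90, 10.03, 9.77 and 9.57 in cortex. Medulla was lower than cortex by 0.53 to 1.03 from P0 to P4 and within 0.24 of it from P6 on. The fitted change was -2.81 in medulla (SE 0.40, limma adjusted p = 0.000374) and -3.60 in cortex (SE 0.40, adjusted p = 1.45e-05). The other kept Grb10 probe was near background, above the filter on 1 medulla and 4 cortex arrays, and gave -0.06 in medulla (adjusted p = 0.691) and -0.37 in cortex (adjusted p = 0.0113). Igf2r, the clearance receptor, read 9.84, 9.58, 9.33, 9.28, 9.19, 9.43, 9.27, 9.71 and 9.71 in medulla and 9.81, 9.39, 9.25, 9.35, 9.38, 9.56, 9.48, 9.84 and 9.79 in cortex. Its P90 and P0 levels differed by -0.13 in medulla and -0.02 in cortex. The fitted change was -0.05 in medulla (95% interval -0.61 to 0.52, adjusted p = 0.904) and 0.23 in cortex (95% interval -0.34 to 0.79, adjusted p = 0.489). Igf2r dipped after birth and returned, so without P0 its cortex line was called as a rise (0.75, adjusted p = 0.0161).

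The second question was when the decline took place. Ages were grouped as P0-P4, P6-P10 and P20-P90, 3 arrays per window and region. In medulla, Igf2 was the 1 of 8 genes lower in P6-P10 than in P0-P4, where 0.169% of all genes were lower (15 of 8901) and 0.157% higher. In cortex 5 of 8 were lower in that step, against 15.7% of all genes lower and 12.9% higher. The next step, P20-P90 against P6-P10, was called lower for 6 of 8 in each region, against 26.5% of all genes lower and 21.4% higher in medulla, and 23.6% lower and 19.5% higher in cortex.

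The window means of Igf2 were 13.56 ± 0.64, 11.42 ± 0.71 and 8.65 ± 0.25 in medulla and 13.93 ± 0.58, 11.99 ± 0.76 and 8.46 ± 0.14 in cortex (SD, n = 3 ages each). The first step was -2.14 in medulla (SE 0.41, limma adjusted p = 0.0333) and -1.94 in cortex (SE 0.41, adjusted p = 0.00271). The medulla call depended on which ages were included: leaving out any 1 of P0, P2, P8, P10 and P30 ended it (values -2.22 to -1.79). Of all 8901 genes, 15 were called lower in this medulla step with all ages. Without P0, P2, P8 or P10 this was 1 each, and without P30 it was 11. Mest showed a first step of -1.17 in medulla (adjusted p = 0.127) and -1.62 in cortex (adjusted p = 0.00159). Dlk1 showed -1.23 in medulla (adjusted p = 0.0995) and -1.50 in cortex (adjusted p = 0.00147), and its second step was near 0 in both regions (-0.14 and -0.06 in that order).

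For Cdkn1c, Ndn and Grb10 the first step was not called in medulla in these windows, and the second step was. Cdkn1c means were 14.11 ± 0.26, 14.34 ± 0.08 and 10.39 ± 0.95 in medulla and 13.16 ± 0.27, 12.45 ± 0.37 and 10.23 ± 0.56 in cortex. Its first step was 0.22 in medulla (SE 0.36, limma adjusted p = 0.901) and -0.71 in cortex (SE 0.36, adjusted p = 0.156), and its second was -3.95 in medulla (adjusted p = 1.61e-06) and -2.22 in cortex (adjusted p = 0.000249). Ndn gave -0.09 in medulla (SE 0.26, adjusted p = 0.965) and -0.94 in cortex (SE 0.26, adjusted p = 0.0146) in the first step, and -2.14 and -1.90 in the second, both called. Grb10 gave -0.37 in medulla (adjusted p = 0.505) and -1.08 in cortex (adjusted p = 0.000904), then -1.55 and -1.39, both called. The cortex call of Ndn in the first step was lost without P2, P8 or P10 (values -0.90 to -0.80).

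**Figure D2:**
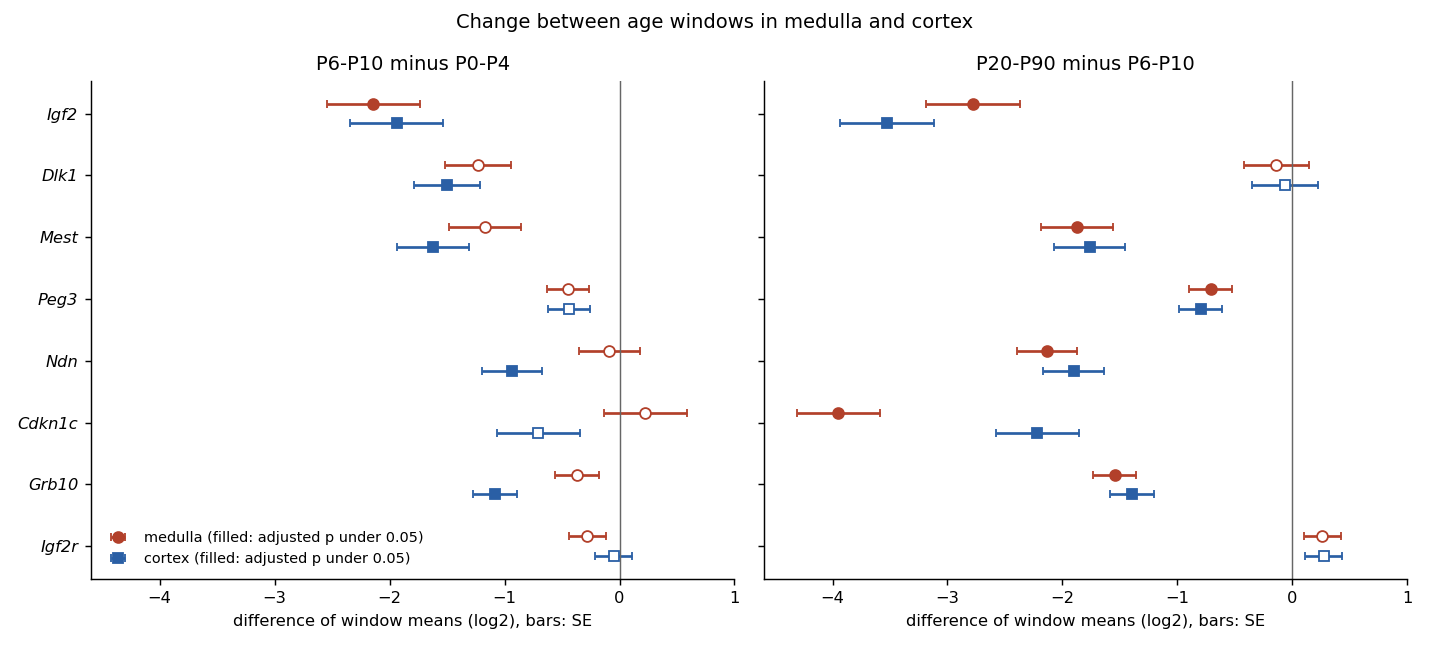
Differences between means of age windows on the log2 scale (x, bars are standard errors) for the 8 tested genes, with medulla as red circles above cortex as blue squares; filled symbols had a limma adjusted p under 0.05. In the first step 1 medulla symbol and 5 cortex symbols are filled, and in the second step 6 of each.

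Timing was also read from single arrays, which give no error. The day at which the level crossed midway between its P0 and P90 values, interpolated on log2(day + 1), was 1.19 in medulla and 3.85 in cortex for Dlk1, 7.64 and 9.33 for Igf2, and 9.17 and 7.64 for Mest. It was 12.7 and 9.10 for Grb10, 18.8 and 15.2 for Cdkn1c, and 20.3 and 13.1 for Ndn, medulla again given before cortex. For Peg3 it was 7.31 in medulla and 12.6 in cortex, on a nearly flat stretch between P6 and P10. Mest, Grb10, Cdkn1c and Ndn, 4 of the 7 genes that fell, thus crossed later in medulla. A level 1 log2 unit below P0 that lasted was reached by Igf2 at P4 in both regions, by Cdkn1c at P20 in both, by Ndn at P20 in medulla and P8 in cortex, and by Grb10 at P20 in medulla and P6 in cortex. Except in Dlk1, the largest step of every gene that fell was between P10 and P20 in both regions. That interval is also longer than those before it. On the linear intensity scale the midway level is always higher by arithmetic, so all 7 genes necessarily crossed earlier in both regions. The day was then 0.659 in medulla and 2.39 in cortex for Dlk1, 2.47 and 3.40 for Igf2, 4.25 and 2.94 for Mest, 3.91 and 3.49 for Peg3, 7.78 and 4.79 for Grb10, 14.02 and 10.2 for Cdkn1c, and 15.5 and 6.87 for Ndn.

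**Figure D3:**
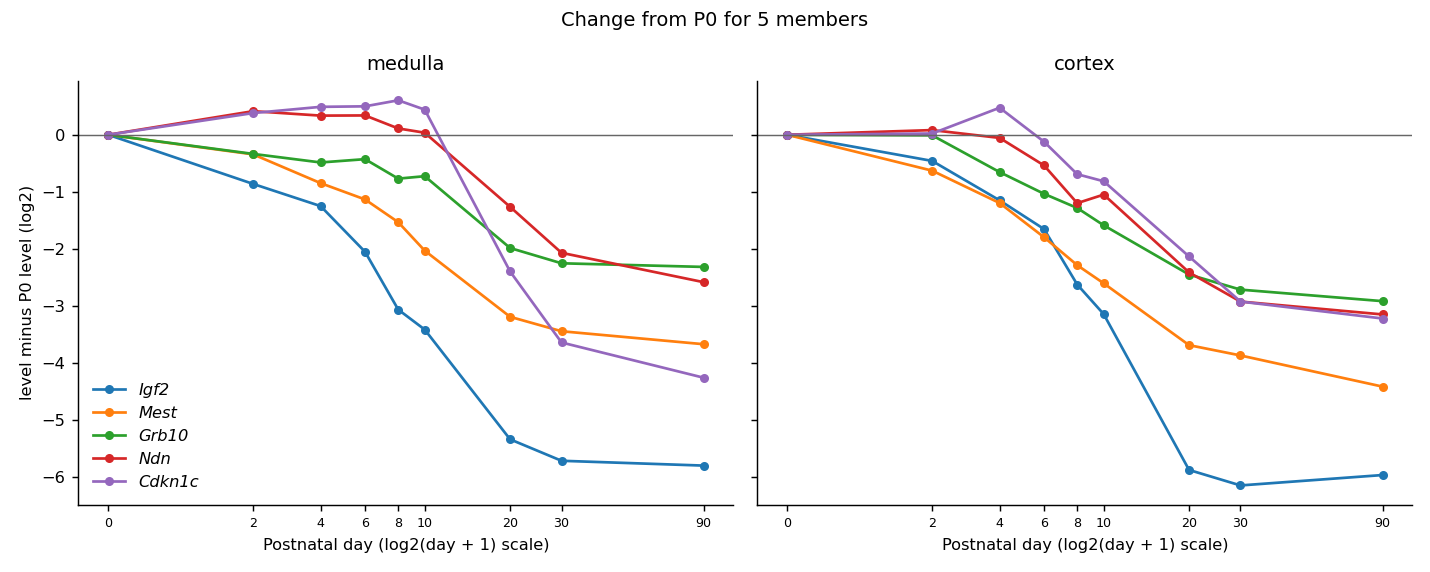
Level minus the P0 level on the log2 scale (y) against postnatal day on a log2(day + 1) scale (x) in medulla (left) and cortex (right) for 5 genes, 1 array per point. At P10 in medulla Cdkn1c stood 0.44 above its P0 level, while Igf2 had changed by -3.42.

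The third question was whether the regions differed in level and in schedule. Averaged over the 9 ages, with age as a block, Cdkn1c was higher in medulla by 0.9999 (SE 0.23, n = 9 ages, limma adjusted p = 0.0096) and Ndn by 0.50 (SE 0.12, adjusted p = 0.0149). Grb10 was lower in medulla by 0.33 (medulla minus cortex -0.33, SE 0.10, adjusted p = 0.0407) and Mest was lower too (-0.23, SE 0.07, adjusted p = 0.0415). Among all genes 12.5% were higher and 11.7% lower in medulla. The Cdkn1c difference was 0.83, 1.19, 0.85, 1.45, 2.13, 2.09, 0.57, 0.11 and -0.21 from P0 to P90, so the excess in medulla was greatest at P8 and P10 and absent at P90. The Grb10 and Mest calls were borderline: Grb10 was no longer called when any single age other than P10 and P90 was dropped (values -0.36 to -0.24), nor Mest for any other than P8 and P90 (values -0.25 to -0.17). Ucp1 stood out at P4 and P10 in both regions and at P6 in cortex. With P4, P6 and P10 dropped from both regions, 0 of the 8 genes were called. Calls over all 8901 genes fell from 1038 lower and 1117 higher to 72 and 352 in that order. Cdkn1c then gave 0.77 (limma adjusted p = 0.136) and Ndn 0.47 (adjusted p = 0.135).

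The straight-line age trends did not differ between regions by the test, 0 of 8, with 0.225% of all genes lower and 0.18% higher and 1750 genes at an unadjusted p under 0.05. The differences ran from -1.25 for Cdkn1c (95% interval -2.90 to 0.40) to 0.79 for Grb10 (95% interval 0.11 to 1.47). Over P0 to P10 alone, 777 of all 8901 genes were lower and 734 higher. Of the 8 genes, 3 were called there, each with a higher slope in medulla: Cdkn1c (2.33, limma adjusted p = 0.0363), Ndn (2.34, adjusted p = 0.0147) and Mest (1.33, adjusted p = 0.0186). These values are slopes carried over the whole scale to P90.

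The difference in the first window step was higher in medulla for 4 of 8 genes, against 13% of all genes higher and 12.9% lower. Medulla minus cortex was 0.93 for Cdkn1c (SE 0.20, limma adjusted p = 0.00589), 0.85 for Ndn (SE 0.16, adjusted p = 0.00239), 0.71 for Grb10 (SE 0.13, adjusted p = 0.00217) and 0.45 for Mest (SE 0.12, adjusted p = 0.0127). For Igf2 it was -0.20 (95% interval -0.47 to 0.07, adjusted p = 0.250) and for Peg3 -0.01 (95% interval -0.22 to 0.20, adjusted p = 0.954). The other kept Grb10 probe, near background, gave -0.06 (limma adjusted p = 0.704). In the second step 5.06% of all genes were lower and 4.86% higher. There Cdkn1c was lower in medulla (-1.73, SE 0.20, limma adjusted p = 0.000458) and Igf2 higher (0.75, SE 0.12, adjusted p = 0.0036). In P20-P90 Igf2 read 8.46 to 8.92 in medulla and 8.31 to 8.58 in cortex, near the filter, where differences are compressed. Igf2 was below cortex by 0.19 to 0.64 in medulla up to P10 and above it by 0.34 at P20 and 0.24 at P30. Without age as a block, or with windows P0-P6, P8-P20 and P30-P90, none of these 6 differences was called (limma adjusted p up to 0.590, with Ndn in the other windows just past the threshold). Of all 8901 genes, the first-step difference was lower for 561 and higher for 520 without the block. In the other windows these counts were 90 and 103. For the second step they were 105 and 67 without the block, and 9 and 8 in the other windows. Mest was not called without P0 or P8 (0.35 and 0.41). Without P4, P6 and P10, Mest gave 0.61 in the first step and Igf2 0.82 in the second. In the first-step difference 7 of 14 cell cycle genes were higher in medulla (median 0.42), and 6 of 6 proximal tubule genes were lower (median -1.13). Without P4, P6 and P10 only P8 was left in P6-P10, so these lists are not counted for that fit. The cell cycle and proximal tubule counts stand beside the 13% higher and 12.9% lower of all genes. The part of these cell cycle and proximal tubule genes in the differences of the imprinted genes was not tested.

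**Figure D4:**
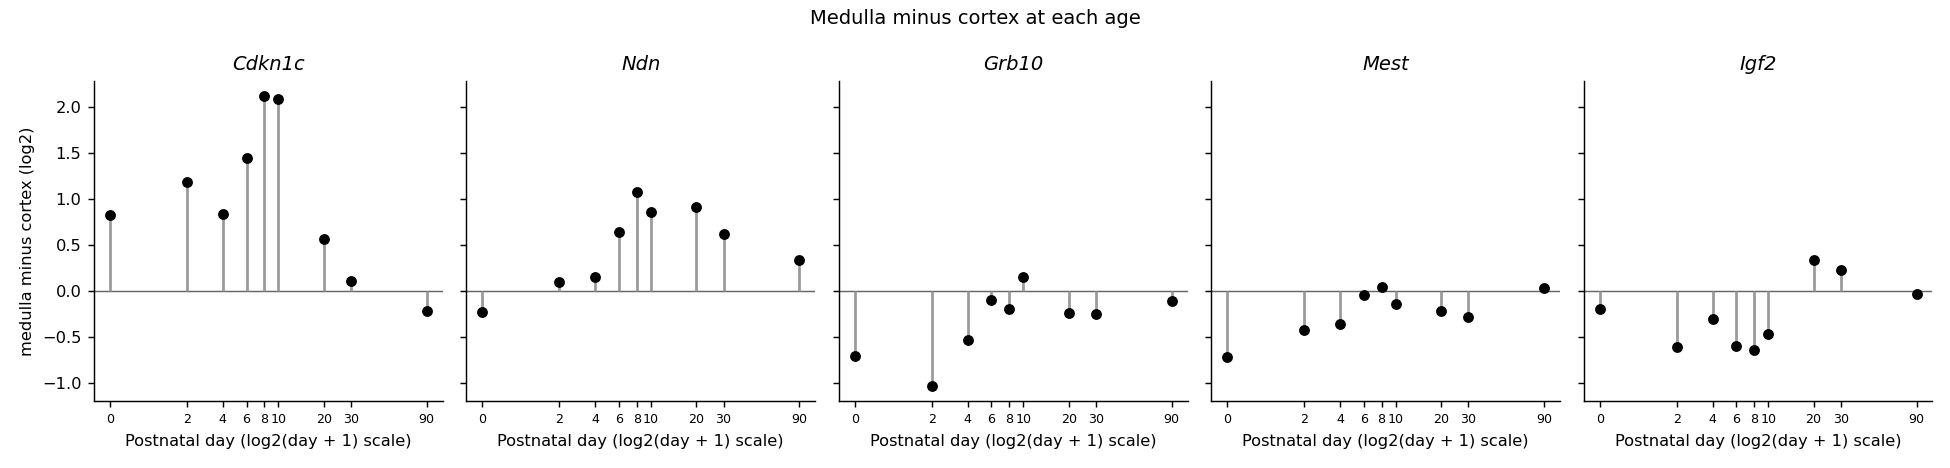
Medulla minus cortex on the log2 scale (y) at each postnatal day on a log2(day + 1) scale (x) for 5 genes; each point is the difference of 2 arrays. Cdkn1c reaches 2.13 at P8 and -0.21 at P90, and Grb10 is -1.03 at P2 and between -0.24 and 0.16 from P6 on.

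Markers of other cell types moved with some of these genes. Their counts stand beside the 22.5% of all genes lower and 16.9% higher with age in medulla, and the 29.9% lower and 25.6% higher in cortex. Of 9 tested stromal genes, 7 fell with age in medulla and 5 in cortex, and 0 rose. Col1a2 and Lum, among the 9, passed the filter only on arrays up to P10, so a decline was a condition of testing them. Their summed intensity on the log2 scale was 13.84 to 13.99 in P0-P4, 14.01 to 14.17 in P6-P10 and 12.27 to 12.89 in P20-P90 in medulla, and 13.18 to 13.47, 13.16 to 13.55 and 12.37 to 12.48 in cortex. Col1a1, a fibrillar collagen chain made by stromal cells, correlated with Cdkn1c at r = 0.988 over the 18 arrays and read 11.80 at P0, 11.48 at P10 and 8.42 at P90 in medulla, and 10.77, 10.46 and 8.58 in cortex. All 5 podocyte genes on the array fell with age in medulla and 4 in cortex. Podocytes are a known site of Cdkn1c protein. Summed podocyte intensity was 12.86 to 13.19 in medulla and 13.59 to 13.76 in cortex in P0-P4, 12.49 to 12.69 and 13.21 to 13.58 in P6-P10, and 11.96 to 12.33 and 12.17 to 12.74 in P20-P90, where the regions overlapped. Of 14 cell cycle genes, 10 fell in medulla and 13 in cortex. For Bub1b, among the 14, a decline was likewise a condition of testing. In the first step 0 of the 14 were called in medulla and 4 in cortex, against 0.169% and 15.7% of all genes lower, in that order. Of 5 tested liver genes, 2 fell with age in medulla and 1 in cortex, and of 4 nephron progenitor genes 0 fell in medulla and 2 in cortex, where 1 rose. Gdnf, among the 2, was above the filter only at P0 in medulla and at P0 and P2 in cortex, so its decline was a condition of testing. Of 5 fat genes 0 rose in medulla and 1 in cortex, and of 4 red cell genes 1 rose in medulla and 0 in cortex. The 1 tested skeletal muscle gene was not called in either region. Of 6 proximal tubule genes 3 rose and 0 fell in medulla, and 6 rose and 0 fell in cortex. The part of these cell types and of dividing cells in the decline was not tested.

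Genes whose 18 values were most like those of each imprinted gene were taken by Pearson's r, as a description of arrays that share ages and regions. The closest to Igf2 were Efnb1 (0.976), an ephrin ligand, Zbtb22 (0.971) and Lsp1 (0.971). Lsp1 (0.977) was also among the closest to Mest, with Dnajc7 (0.979) and Zcchc3 (0.978). Ndn was closest to Armcx2 (0.990), Zfp362 (0.988) and Fstl1 (0.986), a secreted glycoprotein of mesenchyme. After Col1a1, Cdkn1c was closest to Rab8b (0.987) and Sema5a (0.987). Grb10 was closest to the transcription factor gene Sox12 (0.982), Smad4 (0.981) and Rai14 (0.981), Peg3 to Bzw2 (0.952), H2ac15 (0.948) and Pbx2 (0.945), and Dlk1 to Nek3 (0.903), Rrp1b (0.887) and Unc5c (0.877). For Igf2r no gene exceeded 0.816, the value for Sgtb, followed by Tarbp2 (0.813) and Rabl6 (0.786). Among the imprinted genes themselves, r was highest between Mest and Igf2, followed by Mest and Grb10 (0.979), Igf2 and Grb10 (0.969) and Cdkn1c and Ndn (0.961), and it was 0.461 between Cdkn1c and Dlk1.

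Imprinted genes outside the network were called lower in medulla about as often as all genes. Of 46 listed, 39 were on the array and 19 tested. In medulla 4 were lower with age and 1 higher, and in cortex 3 lower and 6 higher, against the 22.5% lower and 16.9% higher of all genes in medulla and 29.9% and 25.6% in cortex, with median fitted changes of 0.00 and 0.06 in that order. Slc22a18, a transporter gene that neighbours Cdkn1c and shares its imprinting control, rose by 2.22 in medulla (SE 0.36, limma adjusted p = 0.000612) and 2.62 in cortex (SE 0.36, adjusted p = 3.98e-05). It read 10.29 at P90 in medulla, against 8.40 at P0, and 10.46 at P90 in cortex, against 8.29 at P0. Phlda2, a growth-restraining gene of the placenta in the same cluster, rose in cortex (1.45, adjusted p = 0.00405) and gave 0.57 in medulla without passing the test; medulla values dipped to 8.50 at P10 before reaching 9.69 at P90. Slc38a4, an amino acid transporter gene, fell in medulla (-0.77), as did Osbpl5 (-0.70) and Mkrn3 (-0.41). Slc38a4, at P0 to P8 in medulla alone, and Mkrn3, up to P10, passed the filter only on early arrays, so a decline was a condition of testing them. The same held for Nnat, among the 19 tested. In cortex Ppp1r9a fell (-1.14) and Ddc, which encodes the decarboxylase that makes dopamine in kidney, rose (1.69).

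**Figure D5:**
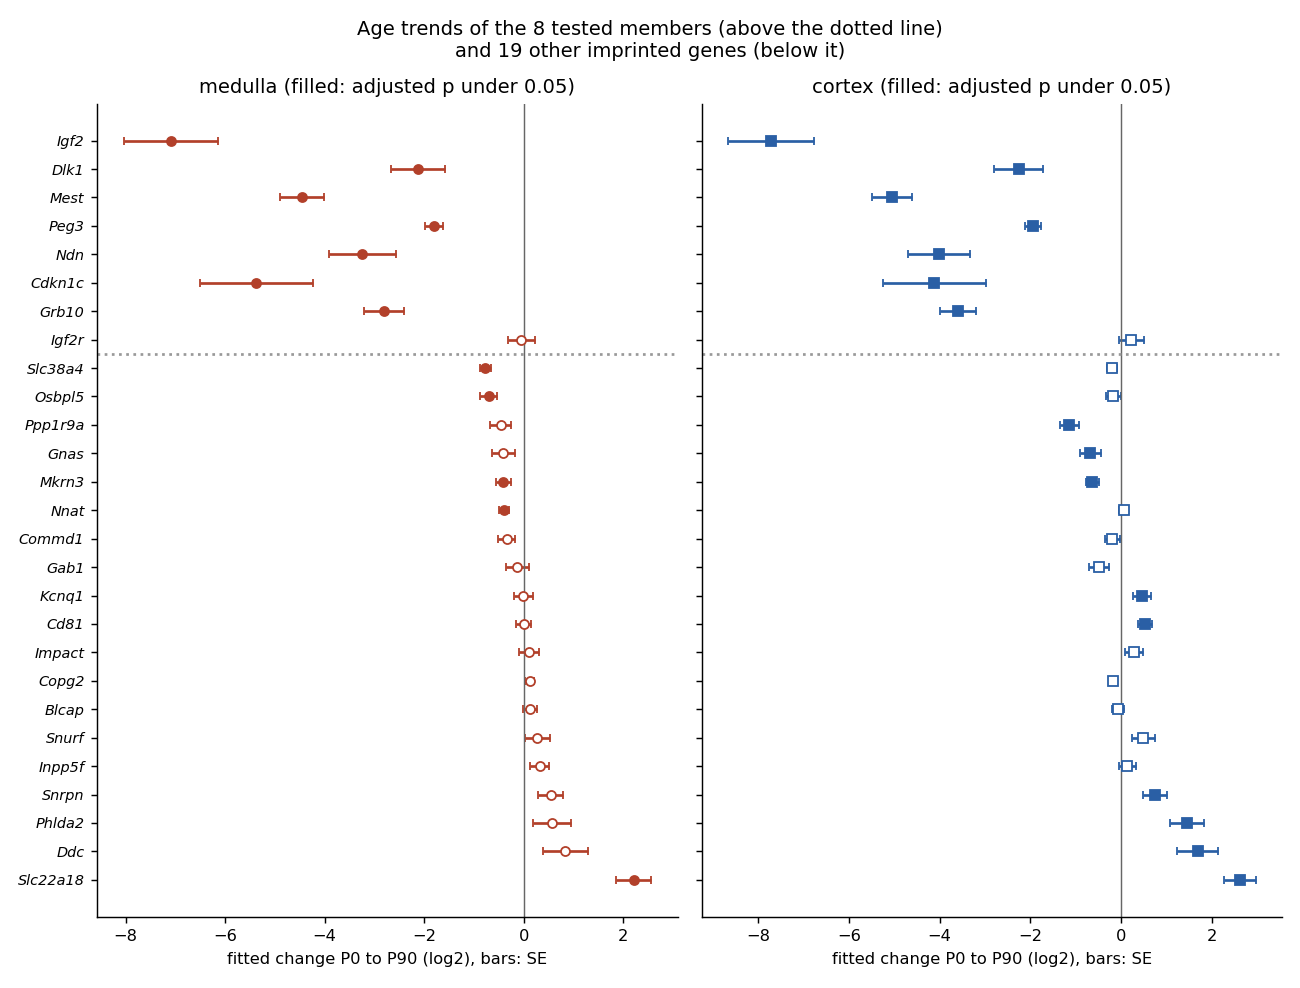
Fitted change from P0 to P90 on the log2 scale (x, bars are standard errors) in medulla (left) and cortex (right) for the 8 tested members of the network, above the dotted line, and 19 other imprinted genes, below it; filled symbols had a limma adjusted p under 0.05. Estimates of the other imprinted genes ran from -1.14 (Ppp1r9a, cortex) to 2.62 (Slc22a18, cortex).

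Of 17 tested genes of IGF signalling, 6 were lower with age in medulla and 0 higher, and in cortex 6 lower and 3 higher, with medians of -0.57 and -0.31. Of all genes 22.5% were lower and 16.9% higher in medulla, and 29.9% and 25.6% in cortex, close to the shares of the list in cortex. Gpc3, the glypican that restrains growth and is lost in a human overgrowth syndrome, fell in both regions (-4.17 in medulla, SE 0.82, limma adjusted p = 0.00162, and -4.87 in cortex, SE 0.82, adjusted p = 0.000186). Igf2bp3, an RNA-binding protein named for its binding to Igf2 mRNA, fell too (-2.33 in medulla and -1.77 in cortex, above the filter only up to P10), as did Stc1, which inhibits a protease of IGF-binding proteins (-1.09 in medulla and -1.20 in cortex). Igfbp2, a binding protein for IGF2, took a course of its own in medulla. It read 8.93, 9.65, 10.19, 10.90, 10.72, 10.99, 9.31, 8.89 and 8.57 there, and between 8.21 and 8.97 in cortex. It rose between the first windows in medulla (1.28, SE 0.23, limma adjusted p = 0.0233). That call was lost without P0, P2 or P10, and with each region fitted alone. In those fits 0 of all 8901 genes were called higher, against 14 with all ages and both regions fitted together. The call was also lost without P4, P6 and P10 together, which left only P8 in P6-P10. The difference between regions in that step was 1.90 (SE 0.31, adjusted p = 0.00126).

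Other regulators of fetal growth and of DNA methylation fell alongside. Of 10 tested, 7 were lower with age in medulla, 9 in cortex and 0 higher in either. Ezh2, among the 10, passed the filter only on arrays up to P10, so a decline was a condition of testing it. Uhrf1, which guides maintenance methylation, fell (-2.71 in medulla and -3.37 in cortex), as did Trim28, a corepressor that protects imprints in the early embryo (-1.95 in medulla and -2.54 in cortex), and the methyltransferase gene Dnmt3b (-1.44 in medulla and -1.93 in cortex). The growth factor gene Ptn fell as well (-2.64 in medulla and -4.93 in cortex). Of all genes 22.5% were lower in medulla and 29.9% in cortex. Their first step was called lower for 0 of 10 in medulla, against 0.169% of all genes, and 7 of 10 in cortex, against 15.7%. The difference in that step was higher in medulla for 6 of 10, against 13% of all genes. Without P4, P6 and P10 only P8 was left in P6-P10, so no counts are given for that fit. Cyclin-dependent kinase inhibitors other than Cdkn1c did not move as a group. Of 4 tested, Cdkn1a fell (-2.12 in medulla and -1.54 in cortex), Cdkn2c rose by 0.82 in medulla and 1.12 in cortex, Cdkn2b rose in medulla (0.74) and Cdkn2d fell in cortex (-0.35). Cdkn1b was at background, at most 8.17 on any array.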

How the data were processed

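Per the labels, RNA was isolated with a QIAGEN kit and labelled with an Ambion MessageAmp kit, and per the series text the arrays were processed with lumi and limma. The deposited table gives log2 intensities, normalized by the authors. The background correction and the exact log transform are not given in the sources used here. A deposited scanner table has 36 columns whose headers match no sample label, and they were not used. Of 46630 probes, 29975 carry 1 gene symbol in the platform annotation, 10 several and 16645 none; symbols were updated through 29920 matched gene IDs. A probe was kept if its value passed the 75th percentile of the array on 3 arrays or more, and the brightest kept probe stood for each of 8901 genes. Array medians ran from 8.08 to 8.10, and the number of arrays limits the precision.

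Tests used limma 3.58.1 in R 4.3.3 and were tested on simulated data. An age trend was the slope on log2(day + 1), expressed as the fitted change from P0 to P90 (14 residual degrees of freedom). Window changes were contrasts in a model of 6 region-window cells (12), and comparisons between regions had age as a block (8, 7 and 6). Calls needed an adjusted p under 0.05. The alternatives were other probes, filters, normalizations, array weights, ages, age scales, blocks and windows. The labels give no replicates; each age counted as 1 of the 9 per region.

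All 10 genes are named with every probe, the 3 tested genes with the highest r to each, and up to 4 called genes with the largest estimates from each list. Further genes named are Col1a1, Phlda2 in medulla, Cdkn1b, Slc14a2 and the array values of Ucp1, which set the ages dropped together, chosen after their values were seen. The members, windows and lists were chosen with earlier results of these data known, so counts over them are descriptions. Dlk1, the second Peg3 probe, Slc38a4, Nnat, Mkrn3, Igf2bp3, Ezh2, Bub1b, Gdnf, Col1a2 and Lum passed the level filter only on arrays up to P10, so being tested depended on early levels. The other lists read were liver, red cell, skeletal muscle, fat, nephron progenitor and proximal tubule genes.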

Additional observations from a re-analysis of the deposited data

Results flagged for a closer look

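Changes between age windows that differed between medulla and cortex, by limma's interaction of region with window, were marked for a second look. In the step to P6-P10 from P0-P4, medulla minus cortex was 0.93 for Cdkn1c, 0.71 for Grb10, 0.45 for Mest and 0.85 for Ndn. In the step to P20-P90 from P6-P10 it was -1.73 for Cdkn1c and 0.75 for Igf2. Igf2 lay near background in P20-P90 in both regions, where differences are compressed. Of 9 stromal genes, 2 were higher in medulla in the first step, against 13% of all genes. They were Meis1 (0.79, limma adjusted p = 0.00142) and Pdgfra (0.49, adjusted p = 0.0496). Without P4, P6 and P10 only P8 was left in P6-P10, so no stromal count is given for that fit. In the second step 2 of 9 were lower, Col3a1 (-1.35) and Col1a1 (-0.999), against 5.06% of all genes. In the same fit the Cdkn1c differences were 1.12 and -1.97. Ndn gave 1.14, Grb10 0.68, Mest 0.61 and Igf2 0.82. At P8, the age left, medulla minus cortex was at its highest for Cdkn1c (2.13) and Ndn (1.08). No calls are given for that fit. The part of stromal cells in these differences was not tested.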

How the results depend on the processing

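Of the alternatives run for the 8 tested genes, 1148 values kept their direction and side of the threshold, 71 lost a call, 11 gained one and 13 changed sign. Over P0 to P10 alone, 4 of 8 genes were called in the medulla age trend, 2 in the level difference between regions and 3 in the difference in age trend. Of all 8901 genes, 155 were lower and 198 higher in that medulla trend. In the level difference these counts were 684 and 1031, and in the difference in age trend 777 and 734. Signs also changed there for Igf2 (difference in trend -0.59), Ndn (medulla 0.091), Cdkn1c (medulla 0.97, difference 2.33), Igf2r (cortex -0.61), Igfbp5 (0.22), Stc1 (0.44) and Uhrf1 (0.15, all 3 in medulla). The medulla trend of Igf2r was 0.011 after renewed quantile normalization, 0.059 after cyclic loess, 0.17 with array weights, 0.26 on untransformed days and -0.39 to 0.41 with an age left out. The first medulla step called 3 genes with array weights, where 234 of all 8901 were lower and 251 higher. It called 0 with each region alone (0 lower and 0 higher of all genes). With an age left out it called 0 to 2, against 1 to 54 lower and 0 to 70 higher of all genes. It called 0 with windows P0-P6, P8-P20 and P30-P90 (8 and 4 of all genes), where Cdkn1c gave -0.79. The second cortex step called 1 gene in those windows (760 lower and 777 higher of all genes). Without P4, P6 and P10 only P8 was left in P6-P10, so the window steps are not counted for that fit. The level difference called 2 to 4 genes with an age left out. All genes then gave 608 to 1144 lower and 845 to 1116 higher. It called 0 without P4, P6 and P10 (72 lower and 352 higher of all genes) and 0 without age as a block (254 and 436). The first-step difference called 0 without that block (561 lower and 520 higher of all genes) and 0 in the other windows (90 and 103). The second-step difference called 0 without the block (105 and 67) and 0 in the other windows (9 and 8). The difference in trend of Dlk1 ranged from -0.22 to 0.49 with an age left out. A midpoint later in medulla was found for 4 of 7 genes, and for 5 on the linear scale and 5 with averaged ends. However, 14 single midpoints moved to another interval between ages. All on the linear scale were earlier, as its higher midway level requires. The causes were not tested. The labels give no replicate numbers, so the regions were paired by age alone, as a block in the region comparisons, and the fit without that block is given above. Values near background are compressed.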
